A study of Mus musculus with 9 samples.

Results

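Fas, Casp8, Ripk3, Mlkl and Bcl2l11 are genes of extrinsic apoptosis and necroptosis, chosen by gene symbol, and all 5 were found among the 11229 genes of the expression table. Their transcripts were measured by RNA-seq in livers of 8-week-old C57BL/6 mice, in 3 libraries per group and 9 in all. The groups were ischaemic postconditioning (IPO), in which the restored blood flow is briefly interrupted again, ischaemia-reperfusion (IR), in which flow to the liver is stopped and then restored, and sham surgery. The labels give no length of ischaemia, no interval before sampling and no statement that replicates are separate animals, so the p-values reflect only how far these libraries differ, which may be technical variation. Tissue was snap frozen before RNA extraction. Values are FPKM, which corrects for gene length and sequencing depth, and the number of reads behind them is unknown.

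Extrinsic apoptosis starts at the cell surface, where the death receptor FAS, once bound by its ligand, recruits the adaptor FADD and the protease caspase 8. Active caspase 8 cleaves executioner caspases and, in hepatocytes, also the protein BID, which carries the signal to mitochondria. Where caspase 8 is held inactive, the kinase RIPK3 can phosphorylate MLKL, which then permeabilises the plasma membrane in a lytic death called necroptosis. BIM, the product of Bcl2l11, is a BH3-only protein that binds the survival proteins of the BCL2 family and can release mitochondrial apoptosis. Caspase 8 cleavage of RIPK1 and RIPK3 restrains necroptosis, so the same proteins serve both routes.

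Fas was the single gene of the 5 that passed the test in any comparison. It was lower in IR than in sham livers, though the groups overlapped and the call ended when any of 7 of the 9 libraries was left out. In those 7 fits fewer of all tested genes passed as well. Casp8 and Fas were each higher in every IPO library than in every IR library, without passing the test, and 22.2% of all tested genes were likewise higher without overlap. Ripk3 and Mlkl were low throughout and highest in IR replicate 3. In that library the summed markers of macrophages, lymphocytes, sinusoidal endothelial cells and stellate cells were also highest. Those of hepatocytes, neutrophils and cholangiocytes were not.

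The libraries were not alike within groups, and this touches several values below. On the first principal component over the tested genes (46.8% of variance) the IPO libraries lay at -25.6 to -19.5, the IR libraries at 29.8 to 43.8 and the sham libraries at -21.2 to -2.20, with sham replicate 3 the nearest sham library to IR. All 8 hepatocyte markers were present, and their summed level was 21902 to 24230 FPKM in IPO, 21958 to 29039 FPKM in IR and 17050 to 24188 FPKM in sham livers. The 8 Kupffer cell and macrophage markers summed to 109 to 127 FPKM in IPO livers, to 159, 95.8 and 377 FPKM in IR replicates 1, 2 and 3, and to 84.0 to 112 FPKM in sham livers. A number inside the description label is shared by all IPO libraries, a second one by all IR libraries and sham replicate 2, and another by sham replicates 1 and 3. What this number stands for is not given, and for IPO it cannot be told apart from the group.

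The upstream sequences of Fas and Bcl2l11 are shown because Fas gave the single call and because Bcl2l11 has 2 RefSeq start sites that bear on an assembled locus described further down. Each is the 250 bases before a RefSeq start site on GRCm38.p6, the assembly that mm10 denotes, read 5′ to 3′ on the plus strand. They are Fas at chr19:34290409-34290658, the first Bcl2l11 start at chr2:128125788-128126037 and the second at chr2:128127325-128127574. Capitals mark the AP-1 letters TGANTCA and the FOXO letters TGTTTAC or their reverse complement GTAAACA.
Fas: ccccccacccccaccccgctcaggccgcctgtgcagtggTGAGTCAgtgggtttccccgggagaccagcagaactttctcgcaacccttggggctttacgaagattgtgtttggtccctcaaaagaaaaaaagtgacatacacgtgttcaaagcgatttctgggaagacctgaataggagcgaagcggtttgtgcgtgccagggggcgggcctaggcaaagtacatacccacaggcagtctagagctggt
Bcl2l11 first start: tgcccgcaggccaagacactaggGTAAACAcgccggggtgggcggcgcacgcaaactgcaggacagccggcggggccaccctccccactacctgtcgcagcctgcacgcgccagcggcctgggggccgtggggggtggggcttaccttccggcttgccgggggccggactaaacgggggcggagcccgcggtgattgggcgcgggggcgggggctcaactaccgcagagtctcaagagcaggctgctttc
Bcl2l11 second start: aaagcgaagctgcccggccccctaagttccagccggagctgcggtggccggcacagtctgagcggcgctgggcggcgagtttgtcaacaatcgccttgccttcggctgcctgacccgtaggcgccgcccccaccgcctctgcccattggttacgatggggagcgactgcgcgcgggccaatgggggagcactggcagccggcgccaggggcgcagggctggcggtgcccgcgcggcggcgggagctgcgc
The 3 motifs searched on both strands in the windows of all 5 genes, AP-1, FOXO and the cyclic AMP response element TGACGTCA, were chosen with these sequences in view. Their letters do not overlap one another in these windows. The AP-1 letters occurred in the Fas window alone, with their first base at -211 from the start, and in 6.75% of all 32851 windows of this length. The FOXO letters occurred in the first Bcl2l11 window alone, at -227, and in 3.17% of all windows. The response element was in none of the 6 windows of the 5 genes and in 1.55% of all. A match of letters is a description and does not show that a factor binds there.

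At the gene level, Fas and Casp8 stood far above the other members. Over the 9 libraries Fas averaged 14.5 ± 5.72 FPKM (SD, n = 9), rank 2518 of 11229 genes, and Casp8 12.9 ± 2.61 FPKM, rank 2765. Mlkl averaged 1.91 ± 0.713 FPKM, Bcl2l11 1.47 ± 0.669 FPKM and Ripk3 1.02 ± 0.537 FPKM, at ranks 8171, 8835 and 9611. Casp8 was above Mlkl in 9 of 9 libraries, while Mlkl was above Bcl2l11 in 6 of 9 and Bcl2l11 above Ripk3 in 6 of 9. The 3 low genes therefore have no fixed order within their spread, and neither have Fas and Casp8. All 5 passed the filter on low values, a 9-library mean of 1 FPKM or more, Ripk3 by a small margin.

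**Figure D1:**
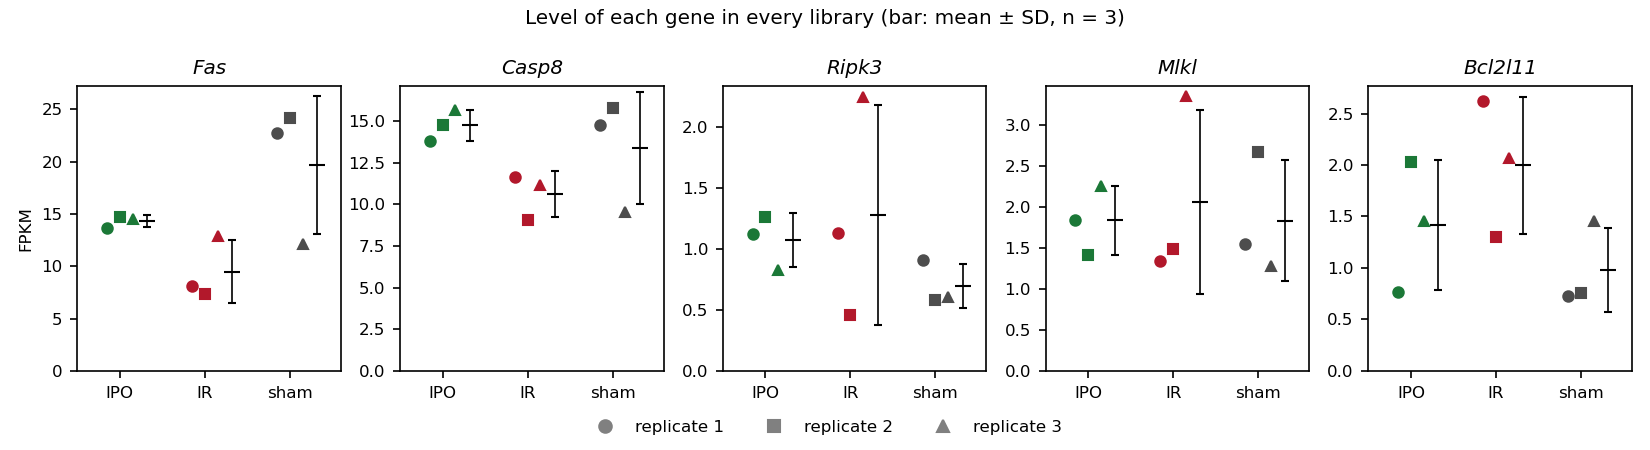
FPKM (y axis, from 0, a separate scale in each panel) of the 5 genes in each of the 3 IPO, 3 IR and 3 sham libraries, with replicates by symbol and the mean ± SD beside them. Fas in IR livers lies at 7.37 to 12.9 FPKM against 12.1 to 24.2 FPKM in sham livers, and Ripk3 and Mlkl have their highest values in IR replicate 3.

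The death receptor gene Fas (ENSMUSG00000024778.12) lies on chromosome 19 from 34290659 to 34327770 on the plus strand of mm10. Its level was 13.7, 14.8 and 14.5 FPKM in IPO livers, 8.11, 7.37 and 12.9 FPKM in IR livers and 22.7, 24.2 and 12.1 FPKM in sham livers. Sham replicate 3 stood well below the other sham libraries, and IR replicate 3 above it, so IR and sham overlapped. The IPO libraries were close together and all above the IR libraries.

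In IR against sham Fas fell by 1.00 on the log2 scale (SE 0.27, 95% interval -1.61 to -0.39, limma adjusted p = 0.0444). Fold changes throughout come from log2(FPKM + 0.5), so those of low genes are understated. Of all 9649 tested genes 11.5% passed the same test in this comparison, 3.86% higher and 7.64% lower, so 1 call among 5 genes is read against that background. The call held without sham replicate 3 (log2 fold change -1.31, adjusted p = 0.00773) and without IR replicate 3. It ended without any other library, with limma adjusted p of 0.0657 to 0.152. The largest of these was without sham replicate 2, and leaving out sham replicate 1 gave 0.149. In the fits without a library that ended the call, 3.21% to 8.39% of all tested genes passed, against 11.5% with all libraries. The loss is thus not particular to Fas, and leaving out an IPO library left its fold change as it was. With the number of the description label as a term the log2 fold change was -1.35 and the adjusted p 0.0958, and among libraries with the number of the IR group the 3 IR libraries stood against sham replicate 2 alone, at 24.2 FPKM. With the replicate number as a block the adjusted p was 0.0889.

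**Figure D2:**
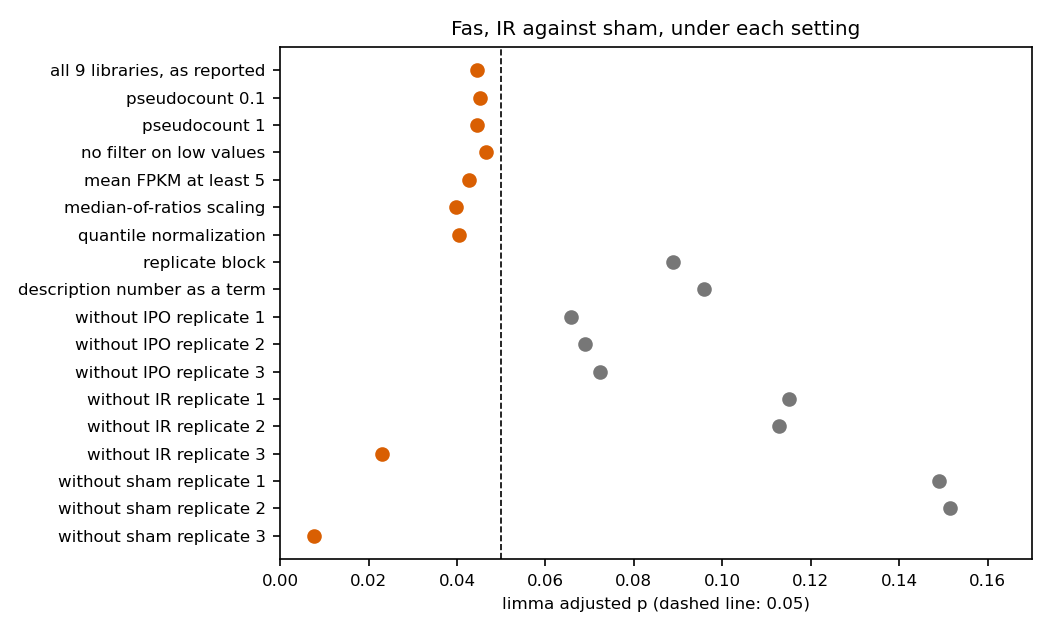
Limma adjusted p (x axis) of Fas in IR against sham under each processing alternative (rows), with the threshold of 0.05 as a dashed line. The values run from 0.00773 without sham replicate 3 to 0.152 without sham replicate 2, and 9 of the 17 alternatives lie past the threshold on the side of no call. Where leaving out a library ended the call, the share of all tested genes called was lower as well.

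In IPO against IR the log2 fold change of Fas was 0.61 (SE 0.27, 95% interval 0.00 to 1.22, limma adjusted p = 0.133), and without IR replicate 3 it was 0.85 with an adjusted p of 0.0478. In IPO against sham it was -0.39 (SE 0.27, interval -0.99 to 0.22, limma adjusted p = 0.616). These comparisons share libraries, so their values are not independent of one another.

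Caspase 8, the initiator protease that FADD recruits, is encoded by Casp8 (ENSMUSG00000026029.14, chromosome 1, 58795374 to 58847503, plus strand). The gene had 13.8, 14.8 and 15.7 FPKM in IPO livers, 11.6, 9.06 and 11.2 FPKM in IR livers and 14.8, 15.8 and 9.53 FPKM in sham livers. All IPO libraries were above all IR libraries, and sham replicate 3 lay among the IR libraries rather than with the other sham libraries. In IPO against IR the log2 fold change was 0.46 (SE 0.19, 95% interval 0.04 to 0.88, limma adjusted p = 0.108). Without sham replicate 3, which enters through the shared estimate of spread, the adjusted p was 0.0350 at the same fold change.

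Against sham the change of Casp8 in IR was -0.29 on the log2 scale (SE 0.19, interval -0.72 to 0.13, limma adjusted p = 0.321). That value was -0.51 without sham replicate 3, with an adjusted p of 0.0488. In IPO against sham it was 0.17 (interval -0.26 to 0.59, adjusted p = 0.793), and -0.05 without sham replicate 3. Whether Casp8 differed between IR and sham thus turned on 1 sham library.

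Fas and Casp8 can be set against each other within a library, since FPKM is per length. The level of Fas over that of Casp8 was 0.990, 1.00 and 0.926 in IPO livers, 0.696, 0.813 and 1.16 in IR livers and 1.54, 1.53 and 1.27 in sham livers. Every sham library was above every library of the other groups in this ratio, which was chosen after the values were seen and was not tested.

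Of the 5 genes 0 passed the limma test in IPO against IR, where 22.1% of all tested genes did, 12.0% higher and 10.1% lower. Fas and Casp8 had an unadjusted p under 0.05, and 36.9% of all tested genes had one. Both were higher in IPO with no overlap between the groups, as were 22.2% of all tested genes, while 0 of the 5 and 20.4% of all were lower without overlap. In IR against sham 1 gene passed the test, Fas. Fas and Bcl2l11 had an unadjusted p under 0.05, as did 29.8% of all, and 0 of the 5 were free of overlap, against 13.2% of all as higher and 19.3% as lower. In IPO against sham 0 passed the limma test and 0 had an unadjusted p under 0.05, where 0.228% of all tested genes passed (0.124% higher, 0.104% lower) and 12.3% had such a p. There 0 of the 5 were free of overlap, against 9.59% of all as higher and 13.2% as lower. The median log2 fold change of the 5 genes was -0.05 in IPO against IR, 0.09 in IR against sham and 0.17 in IPO against sham, beside 0.02, -0.05 and -0.03 over all tested genes.

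**Figure D3:**
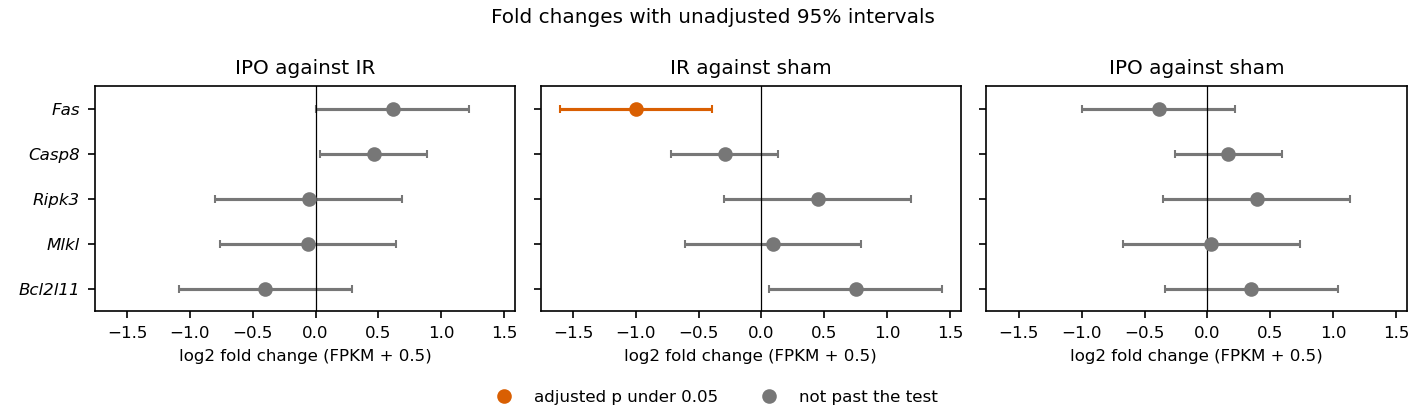
Log2 fold change on the scale of FPKM + 0.5 (x axis) with its unadjusted 95% interval for the 5 genes (rows) in IPO against IR, IR against sham and IPO against sham. Fas, which fell by 1.00 in IR against sham, is the single value past the test, and the intervals of Ripk3 and Mlkl span 0 in each comparison.

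RIPK3, the kinase that activates MLKL, is encoded by Ripk3 (ENSMUSG00000022221.13, chromosome 14, 55784996 to 55788857, minus strand). Its level was 1.13, 1.26 and 0.831 FPKM in IPO livers, 1.13, 0.455 and 2.24 FPKM in IR livers and 0.906, 0.582 and 0.609 FPKM in sham livers. The IR group holds both the lowest and the highest of the 9 libraries, so its SD, 0.903 FPKM, is large beside its mean of 1.28 FPKM. The log2 fold change was -0.05 in IPO against IR (95% interval -0.80 to 0.69, limma adjusted p = 0.928) and 0.45 in IR against sham (interval -0.30 to 1.19, adjusted p = 0.394). In IPO against sham it was 0.39 (interval -0.35 to 1.14, adjusted p = 0.691). These intervals allow changes of either direction at this depth.

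MLKL, the effector that breaches the membrane, is encoded by Mlkl (ENSMUSG00000012519.14, chromosome 8, 111311797 to 111338177, minus strand). Mlkl stood at 1.84, 1.42 and 2.25 FPKM in IPO livers, 1.34, 1.48 and 3.35 FPKM in IR livers and 1.55, 2.67 and 1.28 FPKM in sham livers. All 3 groups overlapped. Its log2 fold change was -0.06 in IPO against IR (95% interval -0.76 to 0.64, limma adjusted p = 0.911), 0.09 in IR against sham (interval -0.61 to 0.80, adjusted p = 0.862) and 0.03 in IPO against sham (interval -0.67 to 0.73, adjusted p = 0.977).

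IR replicate 3 was the highest library for both necroptosis genes. In the same library the 8 Kupffer cell and macrophage markers summed to 377 FPKM, against 159 FPKM or less in each of the other 8 libraries. The 6 T and NK cell markers with values summed to 25.9 FPKM there and to 0.765 to 2.56 FPKM in the other libraries. Sinusoidal endothelial markers summed to 91.3 FPKM and stellate cell markers to 159 FPKM in IR replicate 3, also above every other library (at most 80.4 and 126 FPKM). Among the T and NK cell markers Cd3e, Cd3g, Nkg7 and Gzmb were listed at 0 in at least 1 library. Without IR replicate 3 the log2 fold change of Ripk3 was 0.07 in IR against sham and 0.32 in IPO against IR, and that of Mlkl was -0.25 and 0.28. Without IR replicate 2 that of Ripk3 was 0.83 in IR against sham (limma adjusted p = 0.0871) and -0.44 in IPO against IR. The part of other cell types in these levels was not tested, and in whole liver fewer cells of a type and less RNA per cell cannot be told apart.

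**Figure D4:**
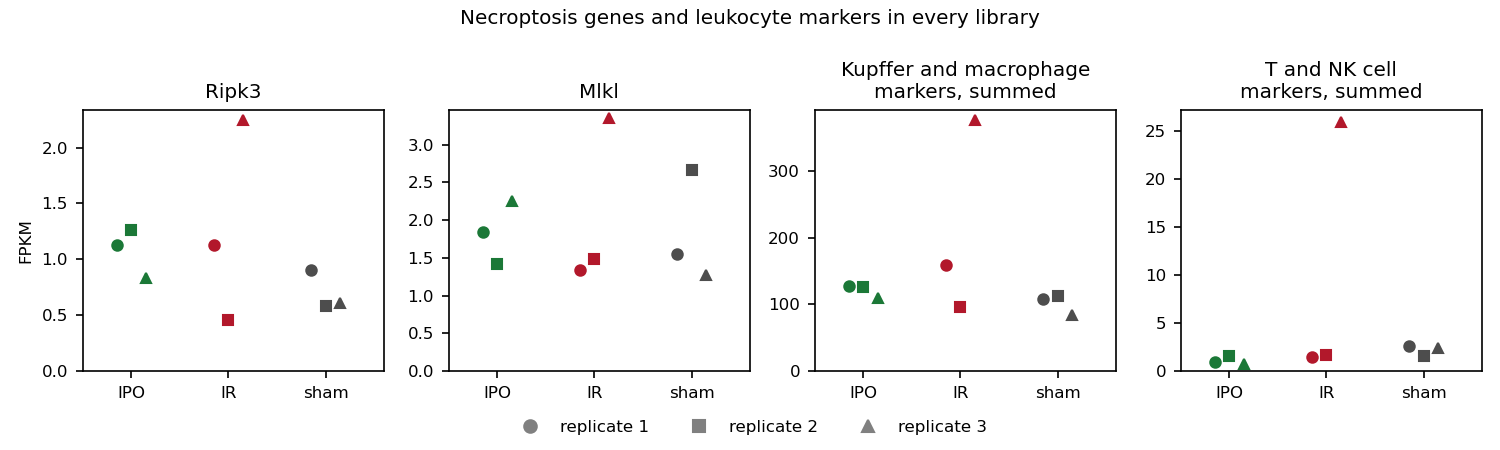
FPKM (y axis, from 0, a separate scale in each panel) of Ripk3, of Mlkl, of 8 Kupffer cell and macrophage markers summed and of 6 T and NK cell markers summed, in each IPO, IR and sham library. IR replicate 3 is the highest of the 9 libraries in all 4 panels, at 2.24, 3.35, 377 and 25.9 FPKM.

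BIM is encoded by Bcl2l11 (ENSMUSG00000027381.16, chromosome 2, 128126038 to 128162547, plus strand). The gene had 0.767, 2.03 and 1.46 FPKM in IPO livers, 2.63, 1.30 and 2.07 FPKM in IR livers and 0.731, 0.759 and 1.46 FPKM in sham livers. Sham replicate 3 was again the sham library nearest to IR, and it overlapped the lowest IR library. The log2 fold change in IR against sham was 0.75 (SE 0.31, 95% interval 0.06 to 1.44, limma adjusted p = 0.138). Leaving out each library in turn gave adjusted p of 0.0781 to 0.326, so no library decided the absence of a call. In IPO against IR the change was -0.40 (interval -1.09 to 0.29, adjusted p = 0.377), and in IPO against sham it was 0.35 (interval -0.34 to 1.04, adjusted p = 0.704).

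The second deposited table, of transcript loci assembled by the authors, held a same-strand locus inside 3 of the 5 genes and none in Ripk3 or Mlkl. Its values are a second reading of the same libraries and are given as a description. The Fas locus (chromosome 19, 34290670 to 34327766) spanned nearly the whole gene and had 0.859 to 0.893 times the gene's FPKM in each of the 9 libraries. The Casp8 locus (chromosome 1, 58826968 to 58846754) covered 38.0% of the gene's span. It had 8.33, 8.89 and 9.33 FPKM in IPO livers, 7.31, 5.67 and 5.83 FPKM in IR livers and 8.79, 7.53 and 6.02 FPKM in sham livers, again with every IPO library above every IR library.

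The Bcl2l11 locus (chromosome 2, 128127575 to 128131495) begins at the second RefSeq start site, the base after the last base of the second Bcl2l11 sequence printed above, 1537 bases into the gene. It covered 10.7% of the gene's span. Its level was 0.905, 1.55 and 1.27 FPKM in IPO livers, 2.35, 1.07 and 1.85 FPKM in IR livers and 0.682, 0.633 and 1.36 FPKM in sham livers. The order of the libraries followed that of the gene closely, with Pearson r = 0.972 on the log2 scale over the 9 libraries. The gene's start in the files, 128126038, is the first RefSeq start site, while for Casp8 the RefSeq start lies 7128 bases inside the gene as the files give it. The shared reads of gene and locus were not separated here.

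The genes whose pattern over the 9 libraries was most like each member were named by Pearson r among 5167 candidates averaging 5 FPKM or more. The points share libraries and groups, so r is a description. Nearest to Fas were Ufm1 (r = 0.971), Ang (0.969) and Ttc7 (0.966). Nearest to Casp8 were Mbl1 (0.959), Pgm1 (0.952) and Tnfaip1 (0.948). Ang had 130, 133 and 124 FPKM in IPO livers, 99.7, 98.0 and 121 FPKM in IR livers and 143, 167 and 120 FPKM in sham livers, which shows the same low sham replicate 3 and high IR replicate 3 as Fas.

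For Ripk3 the nearest genes were Ifngr1 (r = 0.924), Csrp1 (0.922) and Cd68 (0.911). Cd68 is a macrophage marker and had 10.5, 14.1 and 12.3 FPKM in IPO livers, 8.37, 5.12 and 23.4 FPKM in IR livers and 7.03, 5.66 and 4.70 FPKM in sham livers. Without IR replicate 3 these correlations were 0.812, 0.860 and 0.822. For Mlkl they were Keap1 (0.939), Hsd17b12 (0.921) and Ola1 (0.918), and for Bcl2l11 they were C77080 (0.954), Lims2 (0.932) and Fam214b (0.924). Between members, Fas and Casp8 had the highest r, 0.766, and Fas and Bcl2l11 the lowest, -0.62.

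Around the 5 genes, a list of 83 cell death genes in 10 roles was followed, which includes them. Of these 74 had a row in the gene table and 68 passed the filter, and the other 9, among them the ligand genes Tnf and Fasl, were not analysed here. In IPO against IR 4 of the 68 were higher, 8 were lower and 56 did not pass the test, 17.6% in all against 22.1% of all tested genes. In IR against sham 6 were higher, 3 were lower and 59 did not pass, 13.2% against 11.5%. In IPO against sham 1 was higher and 0 were lower, 1.47% against 0.228% of all tested genes. The list's median log2 fold change was -0.04, -0.02 and -0.09 in these comparisons, close to that of all tested genes. IPO against IR and IR against sham share the IR libraries, so opposite signs in them are not independent. The list was chosen with earlier results of these data known. Its shares and those of its roles, set beside all tested genes here and below, are therefore descriptions and not tests of enrichment.

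**Figure D5:**
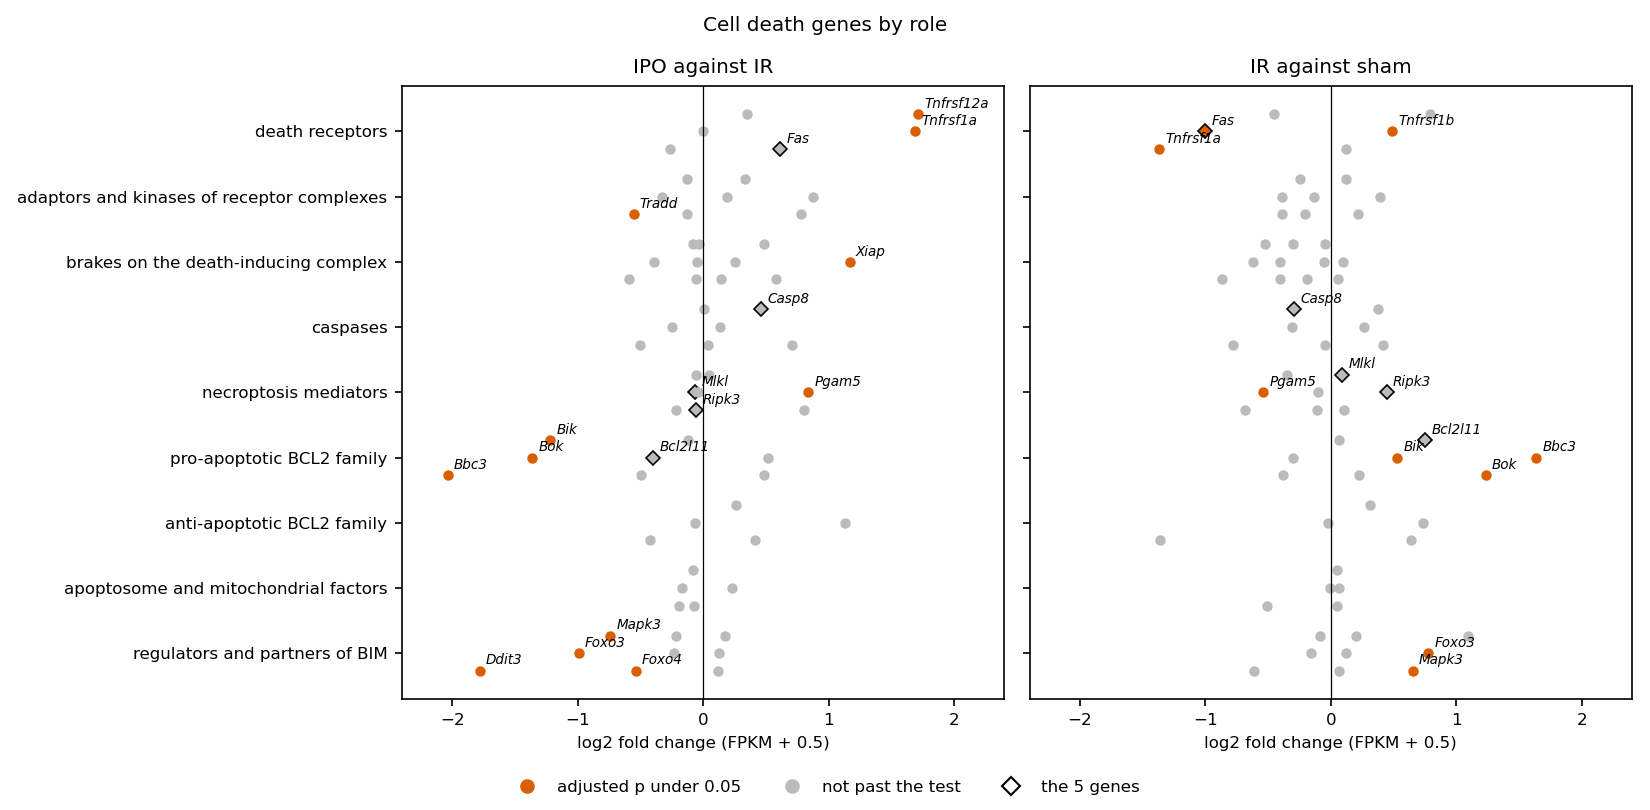
Log2 fold change on the scale of FPKM + 0.5 (x axis) of the tested cell death genes, apart from the 1 ligand gene, by role (rows), in IPO against IR and in IR against sham, with genes past the test in colour and the 5 genes as diamonds. Bbc3, Bok and Bik are the called genes of the pro-apoptotic BCL2 family, and among the receptors Tnfrsf1a is at 1.69 in IPO against IR and at -1.37 in IR against sham.

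The list's 6 tested receptor genes belong to the tumour necrosis factor receptor family, and not all of them are death receptors. In IPO against IR 2 of the 6 were higher, Tnfrsf1a and Tnfrsf12a, where 12.0% of all tested genes were. In IR against sham 1 was higher, Tnfrsf1b, and 2 were lower, Fas and Tnfrsf1a, against 3.86% and 7.64% of all. Tnfrsf21 and Ltbr passed in none of the 3 comparisons, though Ltbr passed in IR against sham without sham replicate 3 (log2 fold change -0.65, limma adjusted p = 0.0150). Tnfrsf1a, which encodes the receptor that signals to both survival and death complexes, averaged 86.3 ± 5.32 FPKM in IPO livers, 26.7 ± 5.11 FPKM in IR livers and 71.3 ± 22.1 FPKM in sham livers (SD, n = 3 each). It rose in IPO against IR (log2 fold change 1.69, SE 0.23, limma adjusted p = 0.00213) and fell in IR against sham (-1.37, SE 0.23, adjusted p = 0.00906). Sham replicate 3 was the lowest sham library here too, at 46.7 FPKM, and was above all IR libraries. With the description number as a term the adjusted p in IR against sham was 0.0617. Tnfrsf1a was at a higher level than Fas in every library.

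Tnfrsf12a, which encodes the receptor of the cytokine TWEAK, had 46.7, 105 and 88.2 FPKM in IPO livers, 33.9, 16.2 and 21.4 FPKM in IR livers and 15.4, 11.9 and 11.8 FPKM in sham livers. It was the 1 listed gene that passed the test in IPO against sham (log2 fold change 2.50, SE 0.33, limma adjusted p = 0.0233). Its groups did not overlap, and the IPO libraries were the highest of all. That call ended without IPO replicate 2 or 3 or any one sham library, with the replicate block and with the description number as a term, at adjusted p of up to 0.171. Against IR it rose in IPO by 1.71 (SE 0.33, limma adjusted p = 0.00729). This second call held under all 17 alternatives, at log2 fold changes of 1.47 to 2.06 and adjusted p of up to 0.0323. The description number cannot be told apart from the group in IPO against IR, so that term could not adjust this fold change. Tnfrsf1b, the second tumour necrosis factor receptor gene, rose in IR against sham by 0.49 (adjusted p = 0.0467), a call that 13 of 17 alternatives ended.

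Of 8 tested adaptor and kinase genes of the receptor complexes 1 passed the test (12.5%, against 22.1% of all tested genes in IPO against IR), Tradd, which encodes an adaptor of the tumour necrosis factor receptor. It fell in IPO against IR (log2 fold change -0.55, SE 0.18, limma adjusted p = 0.0487), and 11 of 16 alternatives ended the call. Ripk1, the kinase gene upstream of Ripk3, averaged 7.68 ± 0.811 FPKM in IPO, 6.02 ± 0.822 FPKM in IR and 7.31 ± 1.58 FPKM in sham livers. Its level was 2.89 to 14.3 times that of Ripk3 and was higher in 9 of 9 libraries. Of the 11 listed regulators of the death-inducing complex 0 passed in IR against sham and in IPO against sham. In IPO against IR 1 passed (9.09%, against 22.1% of all tested genes). It was Xiap, an inhibitor of executioner caspases, which rose by 1.17 (SE 0.31, limma adjusted p = 0.0282). That call ended without any one IPO library or without IR replicate 1. Without IR replicate 3, Birc2, Birc3 and Xiap passed in IR against sham (adjusted p = 0.0391, 0.0326 and 0.0126), and Birc2 passed in IPO against IR (0.0315). Cflar, which encodes the caspase 8 inhibitor FLIP, averaged 10.7 ± 1.45 FPKM in IPO, 7.74 ± 2.59 FPKM in IR and 11.1 ± 2.50 FPKM in sham livers and did not pass the limma test (adjusted p = 0.199 in IPO against IR and 0.200 in IR against sham).

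Of the 7 tested caspase genes 0 passed the limma test in any comparison, and 3 had an unadjusted p under 0.05 in IPO against IR, 1 in IR against sham and 1 in IPO against sham. Over all tested genes 22.1%, 11.5% and 0.228% passed in these comparisons, and 36.9%, 29.8% and 12.3% had such a p. The nearest to the threshold was the inflammatory caspase gene Casp4, with a log2 fold change of 0.71 in IPO against IR (adjusted p = 0.0612) and -0.78 in IR against sham (0.0650). The absence of calls depended on the setting: without IR replicate 3 Casp4 passed in both (adjusted p = 0.00628 and 0.00885), as did Casp1, the gene of another inflammatory caspase (0.0214 and 0.0185). In IPO against IR Casp4 also passed with median-of-ratios scaling (0.0474) and quantile normalization (0.0464), and Casp9 with the second of these (0.0468). Casp8 passed without sham replicate 3, as given above. Of the 8 tested necroptosis genes 1 passed in each comparison with IR, Pgam5, a mitochondrial phosphatase gene. That is 12.5%, against 22.1% of all tested genes in IPO against IR and 11.5% in IR against sham. Here too the count depended on the setting. Tlr3 passed without IR replicate 3 in IPO against IR (limma adjusted p = 0.00566) and in IR against sham (0.0136). In IPO against IR it also passed with median-of-ratios scaling (0.0369) and quantile normalization (0.0311). Pgam5 averaged 12.6 ± 0.119 FPKM in IPO, 6.89 ± 1.12 FPKM in IR and 10.2 ± 1.26 FPKM in sham livers. It rose in IPO against IR by 0.83 (SE 0.15, adjusted p = 0.00539) and fell in IR against sham by 0.54 (adjusted p = 0.0453), the second of which 9 of 17 alternatives ended.

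In the pro-apoptotic BCL2 family 3 of 8 tested genes passed the test in both comparisons with IR, and Bcl2l11 was not among them. All 3 were lower in IPO against IR, as were 10.1% of all tested genes, and higher in IR against sham, as were 3.86%. Bbc3, which encodes the BH3-only protein PUMA, had 0.405, 1.08 and 0.937 FPKM in IPO livers, 3.63, 4.39 and 6.51 FPKM in IR livers and 1.06, 1.49 and 1.02 FPKM in sham livers. Every IR library was above every other library. The gene fell in IPO against IR (log2 fold change -2.04, SE 0.26, limma adjusted p = 0.00134) and rose in IR against sham (1.63, SE 0.26, adjusted p = 0.00685). Bok, a relative of the pore-forming proteins BAX and BAK, averaged 1.66 ± 0.494 FPKM in IPO, 4.97 ± 0.327 FPKM in IR and 1.83 ± 0.295 FPKM in sham livers, with log2 fold changes of -1.36 and 1.23 in those comparisons. Both rises in IR against sham ended with the description number as a term, at adjusted p of 0.0915 and 0.0831.

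Bik, another BH3-only gene, averaged 1.98 ± 0.271 FPKM in IPO, 5.26 ± 0.460 FPKM in IR and 3.50 ± 0.460 FPKM in sham livers. It fell in IPO against IR by 1.22 (SE 0.15, limma adjusted p = 0.00107), and its rise of 0.53 in IR against sham (adjusted p = 0.0467) was ended by 12 of 16 alternatives. None of the 5 tested survival genes of the BCL2 family passed the limma test, with 1, 1 and 2 at an unadjusted p under 0.05 in IPO against IR, IR against sham and IPO against sham. Over all tested genes 22.1%, 11.5% and 0.228% passed, and 36.9%, 29.8% and 12.3% had such a p. Without IR replicate 3 Bcl2a1b passed in IPO against IR (adjusted p = 0.0421) and Bcl2l2 in IR against sham (0.0479). Mcl1, which encodes a survival protein that BIM binds, was higher than Bcl2l11 in 9 of 9 libraries. It had a log2 fold change of 0.57 in IPO against sham (adjusted p = 0.167). The 5 tested genes of the apoptosome and of mitochondrial factors also gave 0 calls, with 1 at an unadjusted p under 0.05 in IR against sham, Cycs, which passed there without IR replicate 3 (adjusted p = 0.0489).

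Among 9 genes that regulate or bind BIM, 4 fell in IPO against IR and 2 rose in IR against sham, beside 10.1% and 3.86% of all tested genes. Foxo3, a transcription factor known to activate Bcl2l11, had 3.76, 4.18 and 3.57 FPKM in IPO livers, 9.87, 7.63 and 7.06 FPKM in IR livers and 3.98, 4.29 and 5.42 FPKM in sham livers, with IR above all others. It fell in IPO against IR (log2 fold change -0.99, SE 0.16, limma adjusted p = 0.00408) and rose in IR against sham (0.78, SE 0.16, adjusted p = 0.0189). Mapk3, which encodes the kinase ERK1 that marks BIM for degradation, moved in the same directions, with -0.74 (adjusted p = 0.00689) and 0.65 (adjusted p = 0.0203). The rise of Foxo3 in IR ended without sham replicate 1 or 2 and that of Mapk3 without sham replicate 1 and with the replicate block, and both ended with the description number as a term. Ddit3, the stress factor CHOP, and Foxo4 fell in IPO against IR by 1.78 and 0.54 (adjusted p = 0.0158 and 0.0204). The call of Ddit3 ended without IPO replicate 2 or IR replicate 1, and that of Foxo4 without IPO replicate 1 or 3 or IR replicate 2.

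None of the 5 genes appears in the authors' deposited tables. Those list 320 genes as higher and 567 as lower in IR against sham, beside 11229 genes in the expression table. The lists hold 853 and 676 genes for IPO against IR and 148 and 127 for IPO against sham. Most genes are unlisted in each comparison, so 0 of 5 is no result about these genes. The authors' deposited tables hold 4 genes of the cell death list as higher in IR against sham, Bbc3, Bok, Foxo3 and Mapk3, and 1 as lower, Tnfrsf1a. In the authors' deposited tables for IPO against IR, 3 are listed as higher, Tnfrsf12a, Tnfrsf1a and Pgam5, and 6 as lower, Bbc3, Bik, Bok, Ddit3, Foxo3 and Mapk3. For IPO against sham the authors' deposited tables list Tnfrsf12a as higher and Bik as lower. Bik did not pass the limma test there (unadjusted p = 0.000928, adjusted p = 0.112). The lists and the calls made here rest on different cutoffs. In the authors' list that holds Bik, p-values from their unnamed test reached 0.0495, and the smallest absolute log2 fold change was 0.586. The q-value of Bik in that list was 0.258, also above 0.05. Calls made here use adjusted values and no cutoff on the size of a change.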

How the data were processed

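RNA from the livers was made into libraries with the KAPA stranded kit, per the labels' protocols, with the mm10 build per the submitters' processing notes. The sources used here name no aligner or quantifier. Both expression tables hold FPKM per library, deposited by the authors. The authors' deposited tables of listed genes hold a log2 fold change, equal to the difference in mean log2(FPKM + 1), and p-values and q-values from a test that no source names, which were not used.

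All 9 libraries were fitted in limma 3.58.1 (R 4.3.3) as 3 group means with a variance trend, on log2(FPKM + 0.5), for the 9649 genes averaging 1 FPKM or more, with 6 residual degrees of freedom. Tests were two-sided and Benjamini-Hochberg adjusted over all tested genes per comparison, called at 0.05. The procedure was tested on simulated data. Depth is unknown: of 200 low values per library, 27.5% to 31.5% were within 0.1 of whole at the best of the steps tried, so most values gave no whole reads. No chance level for a best step was computed.

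The members and lists were chosen with earlier results of these data known. All 5 members are named, along with the 3 genes most like each member and listed genes that passed the test. Also named are up to 2 genes of each role without a call and some genes that passed under an alternative alone. Positions are those of the files. The motifs were chosen with the sequences in view, and a looser NF-kB pattern was dropped after its matches were seen. Whether counting used strand is not given: in GENCODE M21, Mlkl overlaps an antisense pseudogene, Ddit3 overlaps Mars on the other strand, and Fas and Casp8 each overlap a small non-coding gene. Promoter sequences are from RefSeq, GRCm38.p6, and all 5 members matched.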

Additional observations from a re-analysis of the deposited data

How the results depend on the processing

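Member levels under median-of-ratios scaling moved by less than 1 SD for all 15 group means. Of 246 recomputed log2 fold changes of the 5 genes, 221 kept direction and side of the threshold, 9 lost the call, 3 gained one and 13 changed sign, none of the last past the test. In many of the 246 the fold change could not move. The filters, the replicate block and leaving out a library of the group not compared alter the adjusted p alone. In IPO against IR so does the description number as a term, which sets sham replicates 1 and 3 apart from the other libraries. Pseudocounts of 0.1 and 1, no filter, a filter of 5 FPKM (which removes Ripk3, Mlkl and Bcl2l11), median-of-ratios scaling and quantile normalization changed no call of the 5 genes.

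Replicate numbers recur in each group but do not pair the libraries: over 9 same-numbered pairs residuals correlated at -0.137 to 0.0653, and 1 of 9 libraries matched best with its own number. With the replicate block Fas fell by 1.00 in IR against sham and was not called, so 0 of the 5 genes were called. The list then had 4 calls in IR against sham (9 without the block) and 0 in IPO against sham. Of all tested genes 6.69% and 0.0207% passed in these comparisons with the block, against 11.5% and 0.228% without it. With the description number as a term Fas was -1.35 and not called, 0 of the 5 genes were called, and the list had 0 calls in IR against sham and 0 in IPO against sham. Mlkl was then -0.39 in IR against sham and -0.46 in IPO against sham, and Casp8 -0.10 in IPO against sham. This term rests on sham replicate 2 alone against the IR and IPO libraries, and 186 of all tested genes were called in IR against sham, against 1109 without it.

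Leaving out each library in turn, with the gene filter kept as set on all 9 (chosen after a filter on the remaining libraries had dropped Ripk3), gave these ranges. Fas ran from -1.31 to -0.82 in IR against sham, from 0.46 to 0.85 in IPO against IR and from -0.69 to -0.21 in IPO against sham. Casp8 ran from -0.51 to -0.16 in IR against sham, from 0.36 to 0.53 in IPO against IR and from -0.051 to 0.30 in IPO against sham. Ripk3 ran from -0.44 to 0.32 in IPO against IR, and it was 0.06 without IPO replicate 3 and 0.32 without IR replicate 3. It ran from 0.07 to 0.83 in IR against sham and from 0.31 to 0.51 in IPO against sham. Bcl2l11 ran from -0.63 to -0.13 in IPO against IR, from 0.57 to 0.97 in IR against sham and from 0.12 to 0.62 in IPO against sham. Mlkl ran from -0.26 to 0.28 in IPO against IR, from -0.25 to 0.34 in IR against sham and from -0.14 to 0.27 in IPO against sham. The number of the 5 genes called ran from 0 to 1 in IPO against IR and from 0 to 2 in IR against sham. The calls in the list ran from 9 to 20 in IPO against IR, from 3 to 16 in IR against sham and from 0 to 1 in IPO against sham. Over all tested genes the share called ran from 11.2% to 23.1%, from 3.21% to 14.1% and from 0.0104% to 0.269% in these comparisons. The list counts of 20 and 16 came without IR replicate 3, where 21.8% and 12.0% of all tested genes passed. The cause of these changes was not tested. In IPO against sham, 54.5% of 22 calls over all genes were higher, and 65% of 20 with median-of-ratios scaling. Depth is unknown. The intervals of the low genes Ripk3, Mlkl and Bcl2l11 were wider than those of Casp8, but so were those of Fas, the member with the highest mean level.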

Other observations

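Of the list, 6 genes had a row in the gene table but averaged under 1 FPKM and were not tested, namely Tnfsf10, Traf5, Casp12, Bmf, Pmaip1 and Apaf1. Pmaip1 and Tnfsf10 are described because of their values. Pmaip1, which encodes the BH3-only protein NOXA, had 0.214, 0.530 and 0.576 FPKM in IPO livers, 0.729, 1.33 and 3.54 FPKM in IR livers and 0.312, 0.721 and 0.563 FPKM in sham livers. All IR libraries were above the other 6, the lowest at 0.729 FPKM against 0.721 FPKM in sham replicate 2. Among the tested genes, which leave out Pmaip1, 13.2% were higher without overlap in IR against sham. In IPO against IR 20.4% of them were lower without overlap. The share of genes with IR above both other groups at once was not computed. Tnfsf10, the gene of the death ligand TRAIL, had 0.241, 0.318 and 0.193 FPKM in IPO livers, 0.227, 0.327 and 0.993 FPKM in IR livers and 0.195, 0.193 and 0.352 FPKM in sham livers. IR replicate 3 was the highest library for both genes.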
